A study of Mus musculus with 6 samples.

Results

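Mast cells and basophils were 99 of the 24721 cells kept from the CD11b/CD11c-enriched libraries of mouse lymph nodes (0.400%), in a series with 53259 kept cells in 6 libraries. A cell was taken as a member when it had at least 500 UMIs (unique molecular identifiers, each standing for 1 captured RNA molecule), at least 300 genes, at most 10% mitochondrial UMIs and at least 1 UMI of 3 or more of 8 genes: Cpa3, Ms4a2, Fcer1a, Gata2, Mcpt8, Mcpt4, Cma1 and Cyp11a1. Members with a UMI of Mcpt4 or Cma1 and none of Mcpt8 are called mast-like (40 cells), those with Mcpt8 and neither of the other pair basophil-like (46 cells), with 8 cells that had both and 5 that had neither kept apart. The members and their classes were chosen by these measured values, so every contrast between the classes, or between members and other cells, is a description without a test.

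The C57Bl/6 mice gave their axillary and inguinal nodes while carrying YUMMER1.7 melanoma, carrying YUMM1.7 melanoma, or carrying no tumour (naive), with the nodes of several mice pooled into each sample. The YUMM1.7 cells come from a melanoma of genetically engineered mice, and their derivative YUMMER1.7 carries additional ultraviolet-induced mutations and is more readily recognised by the immune system. Cells were released with collagenase, selected with magnetic beads for CD11b and CD11c, and sequenced on the Chromium GEM-X 3' platform. A second set of 3 libraries, 1 per arm, was labelled as de-enriched for CD45 and is called the depleted fraction here; the rule did not use it.

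Each arm had 1 library per fraction. No test between arms was therefore possible, differences between arms cannot be told apart from differences between pools or library preparations, and all intervals given are exact 95% intervals for counting error only. The enriched libraries held 78551522, 78305030 and 86471908 UMIs in the YUMMER1.7, YUMM1.7 and naive arms, and the depleted ones 67709285 to 78240566. Kept barcodes shared by a pair of libraries numbered 5 to 42, at most 0.421% of the smaller library, and 0 of them belonged to members.

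Mast cells and basophils are granulocytic cells that carry the high-affinity IgE receptor and store histamine in granules. Mast cells live in tissues, depend on the receptor Kit, and pack their granules with heparin, chymases, tryptases and carboxypeptidase A3. Basophils circulate in blood, enter nodes and inflamed tissue, carry little or no Kit, and in mice are marked by the granule protease Mcpt8. GATA2 is the transcription factor that both lineages require.

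The regions before the starts of 6 of the 8 genes are shown because they are the genes that chose the members and the classes, and because GATA2 was one of the 8. Each sequence is the 250 bases before the RefSeq start on GRCm38.p6, minus strand, written 5′ to 3′. Capitals mark every match, on either strand, to the hexamers that GATA factors bind, which were searched as AGATAA in the first place, then as TGATAA, then as AGATAG, and last as TGATAG; no marked hexamers overlap.

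Cpa3, chr3:20242182-20242431: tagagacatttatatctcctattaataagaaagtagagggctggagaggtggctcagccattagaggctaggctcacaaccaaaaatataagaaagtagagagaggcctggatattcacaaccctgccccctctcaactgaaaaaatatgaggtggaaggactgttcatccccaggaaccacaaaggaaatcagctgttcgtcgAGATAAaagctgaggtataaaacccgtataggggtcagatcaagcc
Ms4a2, chr19:11623720-11623969: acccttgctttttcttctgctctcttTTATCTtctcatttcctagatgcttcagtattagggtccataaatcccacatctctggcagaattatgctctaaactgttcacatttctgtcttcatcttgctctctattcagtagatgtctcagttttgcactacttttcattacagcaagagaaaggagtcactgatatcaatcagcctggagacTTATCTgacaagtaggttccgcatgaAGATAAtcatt
Fcer1a, chr1:173227230-173227479: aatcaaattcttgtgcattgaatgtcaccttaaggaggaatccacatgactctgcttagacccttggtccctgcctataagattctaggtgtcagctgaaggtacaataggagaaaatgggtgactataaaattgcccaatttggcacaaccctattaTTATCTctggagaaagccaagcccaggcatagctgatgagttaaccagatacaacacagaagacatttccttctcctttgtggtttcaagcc
Mcpt4, chr14:56062311-56062560: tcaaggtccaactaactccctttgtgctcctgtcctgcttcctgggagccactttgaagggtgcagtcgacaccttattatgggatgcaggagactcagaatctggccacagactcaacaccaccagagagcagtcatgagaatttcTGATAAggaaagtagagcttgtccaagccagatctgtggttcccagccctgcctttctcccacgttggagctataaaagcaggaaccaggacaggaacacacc
Cma1, chr14:55944676-55944925: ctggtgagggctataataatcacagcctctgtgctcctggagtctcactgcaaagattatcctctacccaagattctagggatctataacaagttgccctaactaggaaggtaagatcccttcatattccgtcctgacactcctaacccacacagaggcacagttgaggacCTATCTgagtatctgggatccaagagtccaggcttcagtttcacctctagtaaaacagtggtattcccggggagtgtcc
Mcpt8, chr14:56085198-56085447: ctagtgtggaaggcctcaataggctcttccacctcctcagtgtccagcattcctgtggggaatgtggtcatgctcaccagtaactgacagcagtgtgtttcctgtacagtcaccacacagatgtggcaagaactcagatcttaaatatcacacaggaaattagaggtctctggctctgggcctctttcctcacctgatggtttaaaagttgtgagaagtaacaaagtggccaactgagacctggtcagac

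Of these 6 windows 5 held a match, and Ms4a2, the β chain of the IgE receptor, held 3, beginning 224, 37 and 11 bases before the start. The others began 46 bases before the start of Cpa3, 92 before Fcer1a, 103 before Mcpt4 and 79 before Cma1, and no printed letters of the Mcpt8 window matched. Over all 32851 RefSeq windows of this length, 26.5% held at least 1 such hexamer, and a match is a description of letters, not of a bound site.

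**Figure D1:**
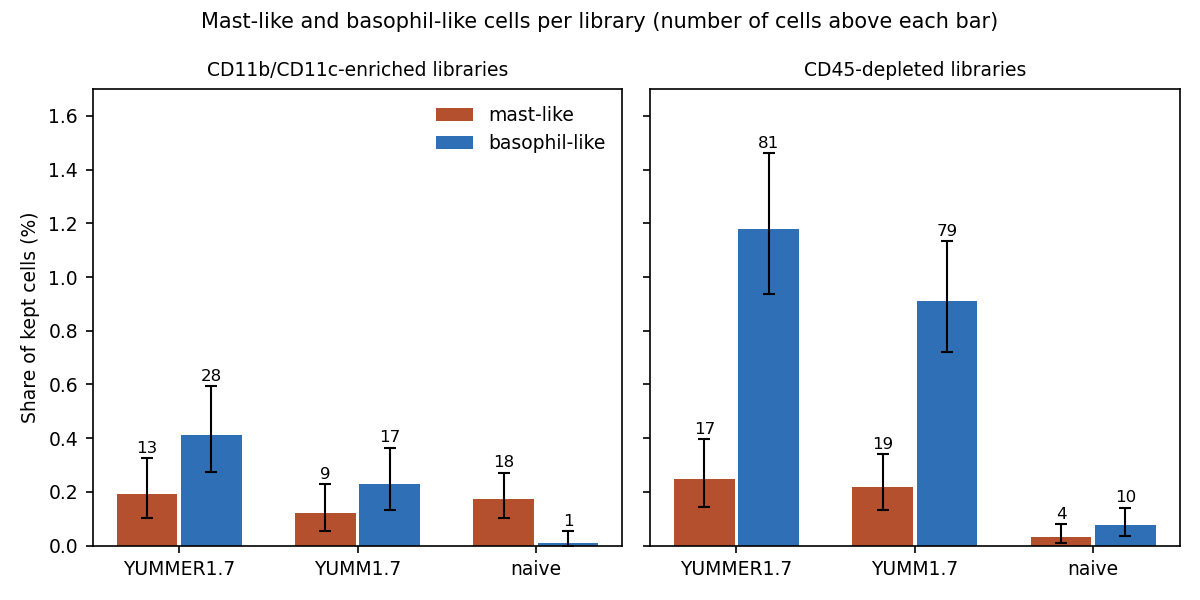
Mast-like and basophil-like cells as a percentage of the kept cells of each library (vertical axis), with exact 95% binomial intervals and the number of cells above each bar, for the YUMMER1.7, YUMM1.7 and naive arms in the enriched (left) and the depleted fraction (right). The basophil-like share of the enriched libraries was 0.412% and 0.228% in the tumour arms and 0.00955% in the naive arm, while the mast-like share lay between 0.121% and 0.191%.

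Basophil-like cells were found almost wholly in the tumour-bearing arms, and mast-like cells in all 3. The YUMMER1.7 library held 28 basophil-like cells of 6801 kept cells (0.412%, interval 0.274 to 0.594), the YUMM1.7 library 17 of 7453 (0.228%, 0.133 to 0.365) and the naive library 1 of 10467 (0.00955%, 0.000242 to 0.0532). The basophil-like share was thus 43.1 times as large in YUMMER1.7 as in naive nodes (7.12 to 1762) and 23.9 times in YUMM1.7 (3.74 to 998). Between the tumour arms the ratio was 1.80 (0.954 to 3.51), an interval that includes 1. A marker of another lineage was counted as found from 1 UMI. At least 2 markers of 1 lineage (T cells, B cells, neutrophils, monocytes, conventional or migratory dendritic cells) were found in 15, 11 and 1 of these cells. Without them 13, 6 and 0 cells were left, with ratios to naive of at least 6.67 and 2.81 against a floor of 3 cells.

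Mast-like cells numbered 13 in YUMMER1.7 (0.191%), 9 in YUMM1.7 (0.121%) and 18 in naive nodes (0.172%). The ratio to naive was 1.11 (0.501 to 2.40) for YUMMER1.7 and 0.702 (0.278 to 1.65) for YUMM1.7, both with intervals that include 1 for these mast-like cells. Their median depth was 6215, 3058 and 7798.5 UMIs. The part of depth, or of RNA from lysed cells, in the marker counts that follow was not tested. At least 2 markers of 1 of those other lineages were found in 5 of the 13, 4 of the 9 and 15 of the 18 cells. Without them 8, 5 and 3 mast-like cells were left, and the ratio to naive was 4.10 (0.985 to 24.0) for YUMMER1.7 and 2.34 (0.455 to 15.1) for YUMM1.7, so the size of this ratio rests on which cells are kept. Among members assigned to a single class, basophil-like cells made up 68.3% in YUMMER1.7 (51.9 to 81.9), 65.4% in YUMM1.7 (44.3 to 82.8) and 5.26% in naive nodes (0.133 to 26.0). The bead selection decides which cells entered these libraries, so the shares are shares of the selected cells.

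The depleted fraction gave 263 members of 28538 kept cells (0.922%) under the same rule. Basophil-like cells again were fewest in the naive arm, with 81 in YUMMER1.7, 79 in YUMM1.7 and 10 in naive nodes, and ratios to naive of 15.3 (7.89 to 33.1) and 11.8 (6.10 to 25.6). Mast-like cells there numbered 17, 19 and 4, with ratios to naive of 8.02 (2.61 to 32.7) and 7.10 (2.36 to 28.7), beside 1.11 and 0.702 in the enriched fraction, a difference between fractions that was not tested. Kept cells had medians of 4886, 4681 and 4235 UMIs in the depleted fraction and 10491, 9702 and 6953 in the enriched fraction, in the order YUMMER1.7, YUMM1.7 and naive; the part of this gap in the counts was not tested.

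Members carried the markers of the label. Cpa3, which encodes carboxypeptidase A3, had a UMI in 76.8% of members, Ms4a2 in 77.8% and Fcer1a, the IgE-binding α chain, in 67.7%. Summed over cells and expressed as counts per 1000000 UMIs (CPM), Cpa3 stood at 5472 in members and 0.752 in the other kept cells, Ms4a2 at 341 and 0.0209, and Fcer1a at 701 and 0.0919. The genes with the largest ratio also included the tryptases Tpsb2 and Tpsab1, the Mas-related receptors Mrgprb1, Mrgprb2 and Mrgprx2, Tph1, the enzyme that starts serotonin synthesis, and the G protein subunit Gnai1. Of 18335 genes tested, 25% differed at least 2-fold and 13.5% were higher in members, which is a description since the markers chose the cells.

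Members near the threshold had few UMIs of the 8 genes. The 15 members with exactly 3 of the 8 genes had 3 to 55 UMIs of those genes (median 5), and 10 of them had fewer than 10. The 47 cells just outside, with exactly 2 of the genes, had 2 to 26 UMIs (median 2), and 45 of them had fewer than 10.

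RNA from lysed cells can give single UMIs in any droplet. In YUMMER1.7, YUMM1.7 and naive libraries, 0.661%, 0.581% and 1.79% of B cells had a UMI of Mcpt4, with at most 1 UMI in a cell, against a median of 281, 52 and 102 UMIs of Mcpt4 in mast-like cells. Mcpt8 had a UMI in 0 of 757 B cells of the YUMMER1.7 library, which allows a share of up to 0.486% by the exact interval; those B cells had a median of 5330 UMIs, against 4836.5 in the basophil-like cells of that library. A UMI of Ccl3 was found in 5.42% of the same B cells, and in 28 of 28 basophil-like cells, where the lowest cell had 9 UMIs.

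Mast-like cells were set against basophil-like cells with the arms pooled, on 308586 and 268980 UMIs in all. Naive cells gave 164762 of the mast-like and 5922 of the basophil-like UMIs, so the pooled contrast also holds differences between arms. Median depth per cell was 5658.5 UMIs (627 to 30510) in mast-like and 4836.5 (833 to 22911) in basophil-like cells. In such sums, fewer cells and less RNA per cell cannot be told apart, and the cells of 1 library are not replicates. A gene is called higher or lower when its CPM ratio is at least 2-fold and it has at least 20 UMIs in the classes together. Of 4385 genes tested, 26.7% were called higher in mast-like cells and 13.3% lower, so that 66.7% of the calls were higher. Without the naive library that share was 48.8%. With TMM scaling it was 51.3%, and the median log2 ratio of all tested genes was −0.02 in place of 0.33.

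Granule proteases were among the genes that differed most between the classes. Mcpt4, the connective tissue chymase, had 7081 UMIs in mast-like and 0 in basophil-like cells, by construction of the classes. Its level was 44261 CPM in YUMMER1.7, 13126 in YUMM1.7 and 14779 in naive mast-like cells. In YUMM1.7 1 cell with 1 UMI of Mcpt4 held 55.2% of all UMIs of the class. Without that cell the YUMM1.7 level was 29282 CPM, above the naive level, from which no cell was left out. Tpsb2, a tryptase that the rule did not use, had 2712 UMIs in mast-like and 0 in basophil-like cells, a log2 ratio of at least 9.62 against a floor of 3 UMIs; it was found in 90% of mast-like cells. Its level was 13376, 3567 and 8072 CPM in the mast-like cells of the YUMMER1.7, YUMM1.7 and naive arms, and 7968 CPM in YUMM1.7 without that cell.

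Cpa3, a gene of the rule, was not absent from basophil-like cells, which it helped to choose. It had 2560 UMIs in mast-like and 76 in basophil-like cells (log2 ratio 4.88, interval 4.55 to 5.22), and 26 of 46 basophil-like cells had at least 1 UMI, with at most 9 in a cell. In mast-like cells it ranged over 1 to 270 UMIs with a median of 38. Ctsg, cathepsin G, had 247 UMIs in mast-like and 10 in basophil-like cells (4.43). Gzmb, granzyme B, went the other way, with 87 UMIs in mast-like and 398 in basophil-like cells (−2.39, −2.74 to −2.05).

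Over the whole protease list, 9 of the 10 tested genes were called higher in mast-like cells and 1 lower, beside 26.7% and 13.3% of all genes; the list contains Mcpt4, Cma1 and Cpa3, which the rule used, and of the other 7 tested genes 6 were called higher and 1 lower. Reads of Tpsb2 and Tpsab1 and of the Mcpt genes may be shared between near-identical copies, and how such reads were handled is not given in the sources used here. Cma1 (GENCODE, GRCm38, chr14:55941451-55944675), Mcpt4 (chr14:56059629-56062313), Mcpt8 (chr14:56082166-56085273), Ctsg (chr14:56099881-56102574) and Gzmb (chr14:56258838-56262260) lie in 1 stretch of chromosome 14, so genes of both classes are neighbours there.

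The mucosal mast cell proteases were confined to few cells. Mcpt1 had a UMI in 3 and Mcpt2 in 8 of 40 mast-like cells, with up to 261 and 291 UMIs in a cell, while 38 of 40 had both Mcpt4 and Cma1. In the depleted fraction Mcpt1 was found in 5 and Mcpt2 in 11 of 40 mast-like cells.

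**Figure D2:**
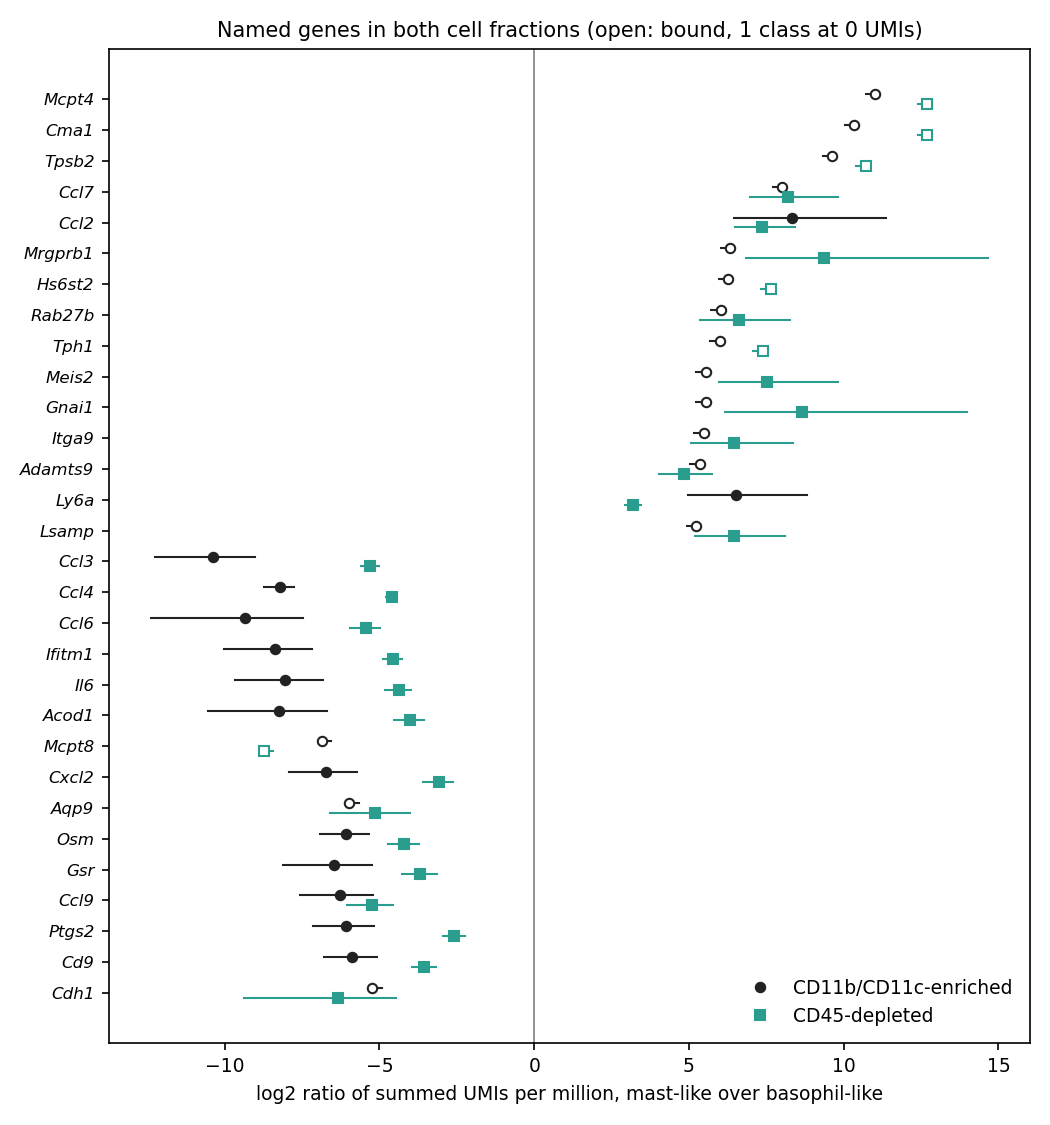
Log2 ratio of CPM, mast-like over basophil-like cells (horizontal axis), for the 15 genes per direction with the interval bound farthest beyond 0 in the enriched fraction, with circles for the enriched and squares for the depleted fraction, lines for exact 95% intervals, and open symbols for bounds where 1 class had 0 UMIs. The 27 genes that the rule did not use lie on the same side of 0 in both fractions, from at least 9.62 for Tpsb2 to −10.38 for Ccl3 in the enriched fraction; Mcpt4, Cma1 and Mcpt8 are fixed by the classes.

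The called CC chemokines of the cytokine list fell into 2 groups that also lie apart on chromosome 11. Ccl2 and Ccl7, both of which attract monocytes, were mast-like, and Ccl3, Ccl4, Ccl6 and Ccl9 were basophil-like. Ccl2 had 733 UMIs in mast-like and 2 in basophil-like cells (log2 ratio 8.32, 6.46 to 11.37), and 82.5% and 2.17% of the cells had a UMI. Its level in mast-like cells was 2156, 543 and 3108 CPM in YUMMER1.7, YUMM1.7 and naive nodes. Ccl7 had 893 UMIs in mast-like and 0 in basophil-like cells (at least 8.02), and 24 of 40 mast-like cells had both chemokines. The pair lies at chr11:82035571-82037453 and chr11:82045712-82047525.

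Ccl3, an inflammatory chemokine that draws leukocytes, had 4 UMIs in mast-like and 4635 in basophil-like cells (−10.38, −12.25 to −9.02). Every one of the 46 basophil-like cells had it, from 9 to 249 UMIs with a median of 103. Ccl3 levels in basophil-like cells were 19229, 14871 and 3377 CPM in YUMMER1.7, YUMM1.7 and naive nodes, the last from 1 cell. Ccl4, its close relative, had 36 UMIs in mast-like and 9417 in basophil-like cells (−8.23), Ccl6 2 and 1127 (−9.34), and Ccl9 7 and 468 (−6.26). Ccl9, Ccl6, Ccl3 and Ccl4 lie between chr11:83572919-83578636 and chr11:83662584-83664683, apart from the Ccl2 and Ccl7 pair.

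Il6, an inflammatory cytokine, was a basophil-like transcript in this fraction. It had 5 UMIs in mast-like and 1149 in basophil-like cells (−8.04, −9.67 to −6.82), and 40 of 46 basophil-like cells had at least 1 UMI, up to 85. The level in basophil-like cells was 3428, 5730 and 2195 CPM in YUMMER1.7, YUMM1.7 and naive nodes. In B cells of the YUMMER1.7 library, 0.264% had a UMI of Il6.

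Il4, the cytokine that steers helper T cells to type 2 responses, was found in both classes. It had 102 UMIs in mast-like and 461 in basophil-like cells (−2.37, −2.70 to −2.06). Basophil-like cells were uneven: 31 of 46 had at least 1 UMI, the median was 1.5 and the highest cell had 107. Il4 stood at 1221, 2516 and 1351 CPM in the basophil-like cells of the YUMMER1.7, YUMM1.7 and naive arms. In the mast-like cells it stood at 440, 145 and 334 CPM. The YUMM1.7 cell that held 55.2% of the UMIs of its class had 0 UMIs of Il4. With at least 10 UMIs of the 8 genes per cell, the mast-like levels of Il4 were 496, 399 and 386 CPM. Il13, the neighbour of Il4 on chromosome 11, had 19 UMIs in mast-like and 126 in basophil-like cells (−2.93).

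Counts of Il4 and Il6 varied from cell to cell. Of the 46 basophil-like cells, 8 had at least 10 UMIs of both, 3 of Il4 only, 20 of Il6 only, and 15 of neither. In the depleted fraction these counts were 12, 8, 53 and 97 of 170 cells. A gene under 10 UMIs could still be present: at least 1 UMI of both was found in 29 of the 46 and 110 of the 170 cells. At 10 UMIs, Il6 only was more frequent than Il4 only in both fractions. The same limit was set for genes of unlike abundance, with medians of 14.5 UMIs of Il6 and 1.5 of Il4 in the enriched fraction. In the depleted fraction the medians were 5 and 1.

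**Figure D3:**
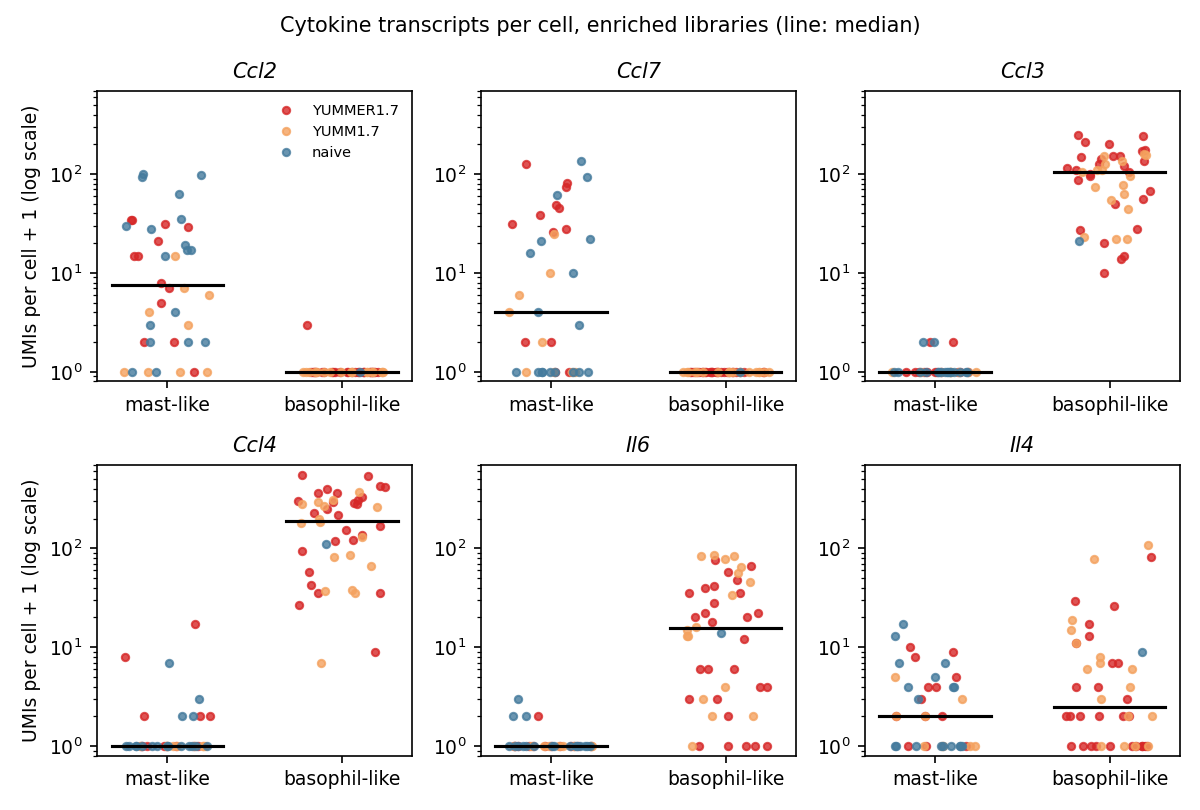
UMIs per cell plus 1 on a log scale for Ccl2, Ccl7, Ccl3, Ccl4, Il6 and Il4 in the mast-like and basophil-like cells of the enriched libraries, with 1 point per cell, colours for the YUMMER1.7, YUMM1.7 and naive arms, and a line at the median of each class. Ccl3 ranged from 9 to 249 UMIs in all 46 basophil-like cells, while Il4 ranged from 0 to 107.

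The basophil-like side also held Osm, oncostatin M, with 15 UMIs in mast-like and 880 in basophil-like cells (−6.07), Il1b with 19 and 358 (−4.43), Csf1, the macrophage growth factor, with 21 and 328 (−4.16), and Hgf, hepatocyte growth factor, with 2 and 172 (−6.62). Cxcl2, a neutrophil chemokine, had 8 and 734 UMIs (−6.72), of which 55.7% came from 1 cell. Tnf had 80 UMIs in mast-like and 131 in basophil-like cells (−0.91) and was not called. Over the cytokine list, 2 of 17 tested genes were called higher in mast-like cells and 13 lower, beside 26.7% and 13.3% of all genes. The median log2 ratio of the list was −4.43, beside 0.33 for all tested genes. Il3, Il5 and Il9 had 0 UMIs in both classes and in both fractions.

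Transcripts of the IgE receptor chains were found in both classes, at unequal levels. Fcer1a and Ms4a2 are genes of the rule, so their values describe cells that they helped to choose. Fcer1a had 291 UMIs in mast-like and 45 in basophil-like cells (2.49, 2.04 to 2.98), and basophil-like cells had at most 3 UMIs each. Ms4a2 had 83 UMIs in mast-like and 126 in basophil-like cells (−0.80), and the shared γ chain Fcer1g 736 and 547 (0.23), neither of them called. Lilrb4a, an inhibitory receptor, was lower in mast-like cells, with 100 UMIs against 479 in basophil-like cells (−2.46). Among 17 tested genes of receptor and proximal signalling, 3 were called higher (Fcer1a, a gene of the rule, Inpp5d and Lat) and 2 lower (Lilrb4a and Gab2), shares that do not exceed the 26.7% and 13.3% of all genes.

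Histamine synthesis was shared and serotonin synthesis was not. Hdc, histidine decarboxylase, had 1107 UMIs in mast-like and 1692 in basophil-like cells (−0.81); every basophil-like cell had at least 3 UMIs, and the highest had 111. Tph1 had 220 UMIs in mast-like and 0 in basophil-like cells (at least 6.00), and Maob, which breaks down amines, 42 and 0 (at least 3.61). Slc18a2, which loads amines into vesicles, had 91 and 108 UMIs (−0.45).

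Enzymes of lipid mediators lay on both sides. Hpgds, which makes prostaglandin D2, had 61 UMIs in mast-like and 0 in basophil-like cells (at least 4.15). Ptgs2, the inducible cyclooxygenase, had 10 in mast-like and 586 in basophil-like cells (−6.07), and Alox5ap, the partner of 5-lipoxygenase in leukotriene synthesis, had 52 and 427 (−3.24). Of 9 tested genes of lipid mediators and amines together, 3 were called higher and 3 lower, beside 26.7% and 13.3% of all genes.

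The enzymes that build heparin were mostly higher in mast-like cells. Ext1, which polymerises the heparan chain, had 786 UMIs in mast-like and 17 in basophil-like cells (5.33, 4.64 to 6.12), and the sulfotransferase Hs6st2 266 and 0 (at least 6.27). Ndst2, which starts the sulfation of heparin, had 42 and 3 (3.61). Of 7 tested genes 6 were called higher and none lower, beside 26.7% and 13.3% of all genes, and the exception, Srgn, the core protein of granule proteoglycans, had 1164 UMIs in mast-like and 2012 in basophil-like cells (−0.99).

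Surface receptors were found on both sides. Kit, the stem cell factor receptor, had 221 UMIs in mast-like and 2 in basophil-like cells (6.59, 4.72 to 9.64). Csf2rb, the signalling chain shared by the IL-3, IL-5 and GM-CSF receptors, had 68 in mast-like and 261 in basophil-like cells (−2.14). Il1rl1, the IL-33 receptor, had 200 and 47 UMIs (1.89), whereas Il18r1 had 29 and 97 (−1.94) and Il18rap 5 and 101 (−4.53). Mrgprb2, the receptor for basic secretagogues, had 56 and 0 UMIs and the adenosine receptor Adora3 55 and 0. The complement receptors were on the basophil-like side, C5ar1 with 4 UMIs in mast-like and 155 in basophil-like cells (−5.47) and C3ar1 with 0 and 59. In all, 9 of 23 tested receptors were called higher and 6 lower, beside 26.7% and 13.3% of all genes.

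Of the transcription factors, Gata2, a gene of the rule that helped to choose both classes, had 132 UMIs in mast-like and 192 in basophil-like cells (−0.74). It was not called. Mitf, the factor that mast cells share with melanocytes, had 116 and 0 UMIs (at least 5.07) and Meis2 161 and 0 (at least 5.55). Cebpa, which drives basophil over mast cell fate, had 6 in mast-like and 39 in basophil-like cells (−2.90), Cebpb 64 and 641 (−3.52) and Runx1 88 and 483 (−2.65). In this group 4 of 18 tested genes were called higher and 4 lower, beside 26.7% and 13.3% of all genes.

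The lists of lineage markers mostly followed their names, with exceptions. For comparison, 26.7% of all 4385 tested genes were called higher in mast-like cells and 13.3% lower. Of 18 tested mast identity genes 13 were called higher in mast-like cells and 1 lower, Cyp11a1, a steroid-synthesis enzyme and a gene of the rule, with 141 UMIs in mast-like and 315 in basophil-like cells (−1.36). Of 18 tested basophil identity genes 0 were called higher and 13 lower, among them Ifitm1, an interferon-induced membrane protein, with 5 and 1463 UMIs (−8.39). Cd200r3, an activating receptor of basophils and mast cells, had 100 and 124 UMIs (−0.51). Without the genes of the rule these counts were 13 and 0 of 17 for the mast list and 0 and 12 of 17 for the basophil list. Ptgdr2, a prostaglandin D2 receptor that marks human basophils, had 0 UMIs in both classes and both fractions.

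Other genes with the widest gaps had less familiar roles in these cells. On the mast-like side Rab27b, a GTPase of granule secretion, had 226 UMIs in mast-like and 0 in basophil-like cells (at least 6.04), the integrin chain Itga9 153 and 0, the metalloprotease Adamts9 140 and 0, and Ly6a, the surface antigen Sca-1, 319 and 3 (6.53). On the basophil-like side Acod1, the enzyme that makes itaconate, had 3 and 798 (−8.25), the tetraspanin Cd9 13 and 665 (−5.87), and Aqp9, a water and glycerol channel, 0 and 165. Each of these genes was past 2-fold on the same side in the depleted fraction.

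Adhesion and homing genes were mostly basophil-like. Of 16 tested genes, 2 were called higher in mast-like cells and 12 lower, beside 26.7% and 13.3% of all genes. Their median was −1.83, beside 0.33 for all tested genes. Itgam, which encodes CD11b, one of the antigens on the selecting beads, had 18 UMIs in mast-like and 80 in basophil-like cells (−2.35). Itgax, which encodes CD11c, had 5 and 3 UMIs. Cxcr2, a neutrophil chemokine receptor, had 0 and 54, Ccr1 0 and 49, and E-cadherin, Cdh1, 0 and 100. Itga4, the α4 integrin, was higher in mast-like cells, with 83 and 24 UMIs (1.59).

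Genes of NF-κB feedback were lower in mast-like cells, while several AP-1 genes were not called. Ier3 had 77 UMIs in mast-like and 1803 in basophil-like cells (−4.75), Nfkbia 367 and 1988 (−2.64) and Zfp36 275 and 1111 (−2.21). Fos, induced within minutes of stimulation or tissue digestion, had 556 and 264 UMIs (0.88) and Jun 867 and 660 (0.20). Of 20 tested genes of this group 2 were called higher and 9 lower, and of 9 heat shock genes 2 and 2, beside 26.7% and 13.3% of all genes.

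**Figure D4:**
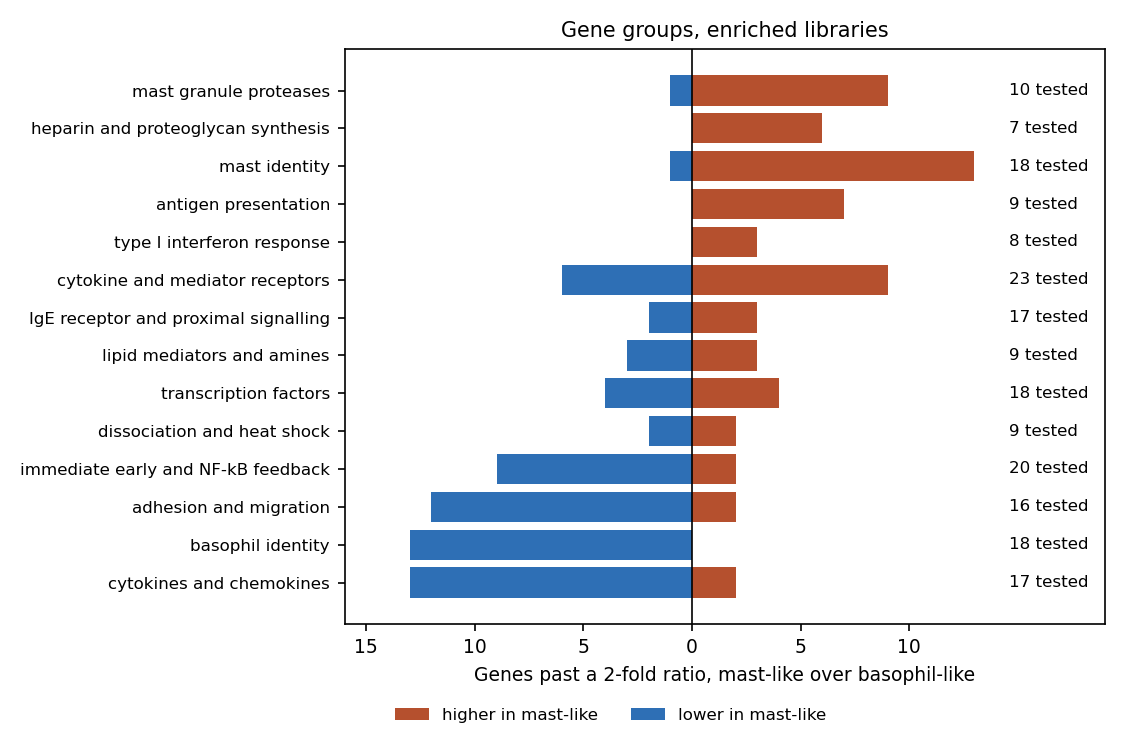
Number of tested genes of each group that were at least 2-fold higher in mast-like than in basophil-like cells (bars to the right) or at least 2-fold lower (bars to the left), in the enriched libraries, with the number tested at the right edge. The bars of the granule proteases (9 higher, 1 lower) and of the cytokines and chemokines (2 higher, 13 lower) point to opposite sides. Of all tested genes, 26.7% were higher and 13.3% lower.

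The split of the gene groups was also described within single libraries. In YUMMER1.7, where 20.2% of 2003 tested genes were called higher in mast-like cells and 25.4% lower, 5 of the 6 tested proteases that the rule did not use were higher and 1 lower, and 2 of 17 cytokine genes were higher and 14 lower. In YUMM1.7, where 18.8% of 1300 genes were called higher and 32.3% lower, these counts were 3 and 1 of 4 proteases and 2 and 13 of 16 cytokine genes. Outside the genes of the rule, the mast identity list had 11 of 15 genes called higher and 0 lower in YUMMER1.7, and 1 higher and 4 lower of 7 in YUMM1.7, where 1 cell held 55.2% of the mast-like UMIs.

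Markers of other lineages differed between the classes. The 8 macrophage markers summed to 2592 CPM in mast-like and 178 CPM in basophil-like cells. In the mast-like cells of single libraries they summed to 113 CPM in YUMMER1.7, 9414 in YUMM1.7 and 1639 in naive nodes. With at least 10 UMIs of the 8 genes per cell, these sums were 102, 49.9 and 645 CPM. That limit left out the YUMM1.7 cell that held 55.2% of the UMIs of its class. The 8 monocyte markers summed to 1121 CPM in mast-like and 4034 CPM in basophil-like cells. T cell markers summed to 217 CPM in mast-like and 33.5 CPM in basophil-like cells, and B cell markers to 279 and 14.9 CPM. The eosinophil genes Epx, Prg2, Prg3, Ear1 and Ear6 were at 0 in both classes. Genes of antigen presentation were called higher in mast-like cells in 7 of 9 cases, beside 26.7% of all genes, but 1 cell gave 38% of the UMIs of H2-Ab1. In the depleted fraction 1 of 8 was called higher and 2 lower, beside 19.3% and 17.6% of all genes. The part of other lineages in these values was not tested.

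The classes were formed by the same genes in the depleted fraction, so Mcpt4, Cma1 and Mcpt8 are fixed there too, and the other genes are the ones compared. There, on 370929 UMIs of mast-like and 990698 of basophil-like cells, 19.3% of 7390 genes were called higher and 17.6% lower. Of the 30 genes named by rank in the enriched fraction, the 27 that the rule did not use were past 2-fold on the same side. Ccl7 had 550 UMIs in mast-like and 5 in basophil-like cells (8.20), Ccl2 621 and 10 (7.37), Ccl3 98 and 10244 (−5.29) and Il6 47 and 2620 (−4.38). Tested in the depleted fraction, proteases outside the rule had 5 of 7 genes called higher and 1 lower, heparin synthesis 6 and 1 of 10, cytokines 2 and 18 of 22, and adhesion 2 and 14 of 18. Ctsg had 166 UMIs in mast-like and 500 in basophil-like cells (−0.17), but 459 of the 500 came from 8 cells with at least 10 UMIs of Prss34; against the other 162 cells, which had 41, its log2 ratio was 3.27 (2.77 to 3.80).

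Interferon-response genes differed between fractions in how many could be tested. In the enriched fraction 3 of 8 tested genes were called higher in mast-like cells and none lower (median 0.89), and in the depleted fraction 16 of 19 and 1 (median 1.61). Of all tested genes, 26.7% were called higher and 13.3% lower in the enriched fraction (median 0.33). In the depleted fraction these shares were 19.3% and 17.6% (median 0.07). Bst2, tetherin, had 149 UMIs in mast-like and 23 in basophil-like cells of the enriched fraction (2.50) and 335 and 119 in the depleted fraction (2.91). Isg15, a ubiquitin-like interferon product, had 131 and 35 (1.71), and 194 and 214 (1.28).

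Prss34, a second basophil granule protease, was chosen for description after its values were seen. In the enriched libraries it had 1 UMI in all 46 basophil-like cells. In the depleted libraries a UMI was found in 13 of 81 basophil-like cells of YUMMER1.7, 7 of 79 of YUMM1.7 and 1 of 10 of naive nodes, with up to 429, 510 and 18 UMIs in a cell. Only 8 cells had 10 UMIs or more, from all 3 arms.

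Those 8 cells, chosen by Prss34, were then described beside the other 162 depleted basophil-like cells. Mcpt8 stood at 14704 and 2127 CPM (2.79, 2.69 to 2.89), Cpa3 at 3385 and 305 CPM (3.47) and Ctsg at 4377 and 46.3 CPM (6.56). Mpo, a granule enzyme of myeloid progenitors and neutrophils, had 153 UMIs in the 8 cells and 0 in the others (at least 8.75), and Ms4a3, a gene of granulocyte and monocyte progenitors, 96 and 3 (8.08, 6.49 to 10.38). Ccl3 stood at 2708 and 11244 CPM (−2.05) and Il4 at 133 and 1402 CPM (−3.39). The Prss34 cells thus had more granule protease RNA and less Ccl3 and Il4 RNA, in a comparison that Prss34 itself selected.

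The arms were set side by side within each class. Of 1956 genes tested in the basophil-like cells of the enriched libraries, 8.54% were called higher in YUMMER1.7 than in YUMM1.7 and 6.85% lower. With TMM scaling the share of calls that were higher was 66.8% in place of 55.5%. In the basophil identity list 0 of 15 tested genes were called in either direction (median 0.44). Il4 was lower in YUMMER1.7, at 1221 and 2516 CPM (−1.04, −1.32 to −0.77), but in the depleted libraries it stood at 1224 and 1399 CPM. Ccl3 had 3102 UMIs in YUMMER1.7 and 1513 in YUMM1.7 cells, 19229 and 14871 CPM.

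Of the 12 genes named between the tumour arms, 11 drew 66.7% to 96.2% of their UMIs from 1 cell. On the YUMMER1.7 side Chil3 had 76 and 3 UMIs, with 96.2% from 1 cell, Ccl5 110 and 6 (3.53), with 88.8%, and S100a8 83 and 4 (3.71), with 83.9%. On the YUMM1.7 side, H2-Ab1 had 10 and 95 UMIs (−3.91), with 79.0% from 1 cell, and Cd74 51 and 229 (−2.83), with 71.8%. In the depleted fraction Cd74 stood at −0.65 and H2-Ab1 at −1.47, and Ccl5 had the other sign (−2.54). The exception was Alyref, an mRNA export factor, with 35 and 1 UMIs (4.46, 1.89 to 9.81) and 27.8% from 1 cell, but it stood at −0.02 in the depleted fraction. Of 4 genes on the YUMMER1.7 side that had a value there, 0 had the same sign.

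The naive arm could be compared for basophil-like cells only in the depleted fraction, with 81, 79 and 10 cells. Mcpt8 stood at 4199, 3116 and 722 CPM in YUMMER1.7, YUMM1.7 and naive nodes (2.54 and 2.11 over naive), where 12% and 12.3% of all tested genes were called higher. Mcpt8 defines the class, and 1542 of its 3426 UMIs came from the 8 Prss34 cells; without them it stood at 2903, 1483 and 966 CPM (1.59 and 0.62 over naive). Isg15 stood at 353, 102 and 13.6 CPM, from 168, 45 and 1 UMIs, with a log2 ratio of 4.70 (2.20 to 10.01) for YUMMER1.7 over naive and 1.79 (1.31 to 2.30) for YUMMER1.7 over YUMM1.7. Il6 stood at 2386, 3036 and 1961 CPM and Ccl3 at 10527, 10490 and 8227 CPM, none of them past 2-fold. Il1b was lower in YUMMER1.7 than in YUMM1.7, with 112 and 392 UMIs (−1.91), where 10.2% of 5506 genes were called lower.

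**Figure D5:**
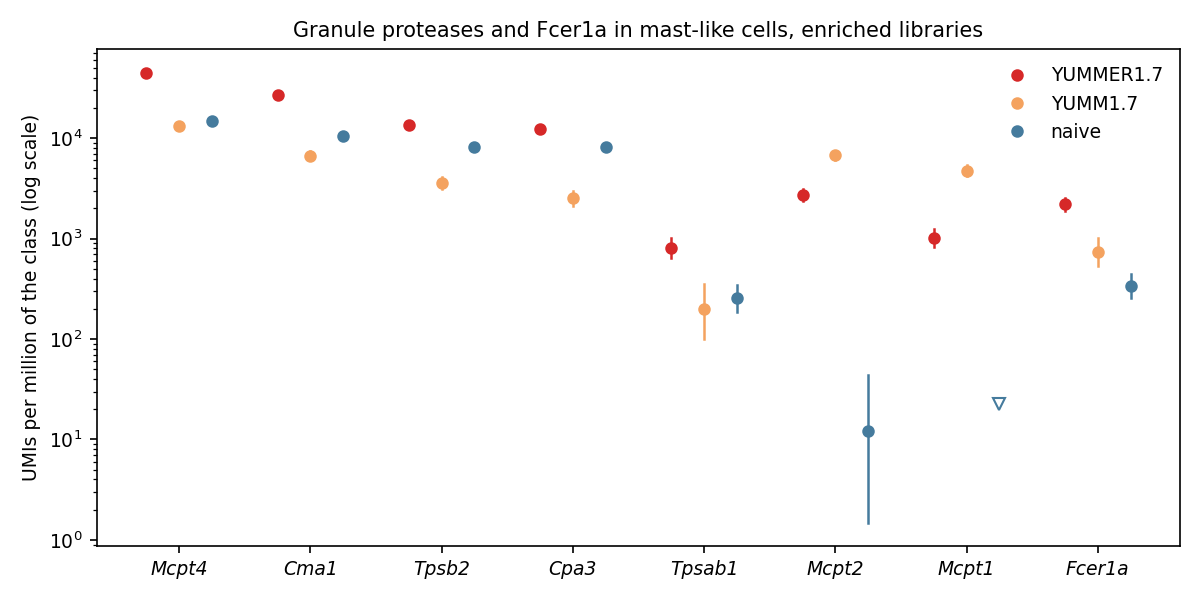
CPM in mast-like cells on a log scale for 7 granule proteases and Fcer1a in the YUMMER1.7, YUMM1.7 and naive enriched libraries, with exact 95% counting intervals and an open triangle at the upper limit where a library had 0 UMIs. Fcer1a stood at 2190, 742 and 340 CPM, and the YUMMER1.7 points of Mcpt4, Cma1, Tpsb2, Cpa3 and Tpsab1 lie above those of the other arms; Fcer1a, Mcpt4, Cma1 and Cpa3 are genes of the rule.

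Mast-like cells of the 3 arms differed in depth and in the weight of single cells. In YUMM1.7 1 cell held 30510 of 55235 UMIs (55.2%), with 154 UMIs of the macrophage gene C1qa and 1 UMI each of Cpa3, Mcpt4 and Cma1; the deepest cells of the other arms held 19.3% in YUMMER1.7 and 16% in naive nodes. The YUMM1.7 arm was therefore described a second time without that cell, a setting chosen after seeing the data, which leaves it out by depth and not by a gene of the rule. Of all tested genes, 9.28% were called higher and 20.1% lower in YUMMER1.7 than in naive nodes, and 11.1% and 28.4% in YUMM1.7 (39.6% in either direction), or 9.04% and 23.4% without the cell. Without the cells that held markers of other lineages, which left 8, 5 and 3 cells, the balance turned: higher calls made up 67.6% of the calls in YUMMER1.7, in place of 31.6%, and 67% in YUMM1.7, in place of 28.2%.

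The IgE receptor α chain is a gene of the rule, so its levels are a description of cells it helped to choose. Fcer1a had 194 UMIs in 13 of 13 YUMMER1.7 cells, 41 in 6 of 9 YUMM1.7 cells and 56 in 12 of 18 naive cells. Over naive, the log2 ratio was 2.69 (2.25 to 3.14) for YUMMER1.7, and 1.01 without the cells with markers of other lineages. For YUMM1.7 it was 1.13 (0.51 to 1.73), and 2.29 (1.67 to 2.89) without the deepest cell. In the depleted fraction Fcer1a stood at 2151, 756 and 769 CPM in mast-like cells, so the level of YUMM1.7 there was not above that of naive nodes, which had 4 cells.

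Of 7 tested granule proteases that the rule did not use, 4 were called higher in YUMMER1.7 than in naive mast-like cells and none lower. Of all tested genes, 9.28% were called higher and 20.1% lower. The median of these proteases was 1.67, beside −0.13 for all tested genes, with Ctsg at 2.71. The 4 included Mcpt2 and Mcpt1, which drew 54.3% and 90% of their UMIs in that contrast from 1 cell. In YUMM1.7 2 of 6 were called higher and 2 lower (median −0.52), and 2 and 1 without the deepest cell (median 0.64). Over all genes the shares were 11.1% and 28.4% with that cell, and 9.04% and 23.4% without it. Among the genes of the rule, Mcpt4 stood at 1.58 and Cma1 at 1.34 in YUMMER1.7 over naive. These protease ratios include cells with markers of other lineages. Without such cells 3 naive mast-like cells were left, and the YUMMER1.7 over naive median of all tested genes was 0.48 in place of −0.13. Cpa3 in YUMM1.7 was 2517 CPM, against 8072 CPM in naive nodes (−1.68), and 5581 CPM without the deepest cell (−0.53). In the depleted fraction Mcpt4 stood at 24875, 14931 and 10584 CPM and Cma1 at 28959, 9816 and 8810 CPM in YUMMER1.7, YUMM1.7 and naive nodes.

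Mcpt2 and Mcpt1 had the widest gaps to naive, from few cells. Mcpt2 had 241 UMIs in 4 YUMMER1.7 cells, 374 in 3 YUMM1.7 cells and 2 in 1 naive cell, with log2 ratios of 7.81 and 9.12 over naive (10.28 in YUMM1.7 without the deepest cell), and 54.3% and 77.4% of the UMIs of each contrast from 1 cell. Mcpt1 had 90 UMIs in 2 cells, 261 in 1 cell and 0 in naive cells. In the depleted fraction the naive level was not low, at 946 CPM of Mcpt2, beside 2116 in YUMMER1.7 and 159 in YUMM1.7.

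Isg15 stood at 1174, 199 and 97.1 CPM in the mast-like cells of YUMMER1.7, YUMM1.7 and naive nodes (3.60, 2.83 to 4.45, for YUMMER1.7), and at 549, 515 and 296 CPM in the depleted fraction. Without the deepest cell its YUMM1.7 level was 445 CPM (2.20 over naive, 0.94 to 3.39). Bst2 stood at 711, 670 and 297 CPM, and YUMM1.7 over naive was −0.07 without that cell in place of 1.17. Ccl2 stood at −2.52 in YUMM1.7 over naive, and at −1.46 without the cell, while Ccl7 stood at 1.36 in YUMMER1.7. Egr1, an immediate early gene, was lower in both tumour arms (−1.62 and −4.71), and at −3.55 in YUMM1.7 without the cell. Hint1 (1.71 and 1.64) and Ndufv3 (2.66 and 2.42) were higher in both, with 1.15 for Hint1 in YUMM1.7 without the cell, an interval that includes 0, and 3 UMIs in YUMM1.7 and 5 in naive cells left of Ndufv3. Cited2 stood at −2.50 and −3.30, but at 0.49 and −0.49 without the cells with markers of other lineages. Homer1 stood at −2.99 and at most −2.72, and at most −1.56 in YUMM1.7 without the deepest cell. The remaining named genes, Colec12, Calca, Penk and Ccl5, drew 72.2% to 100% of their UMIs from 1 cell.

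The 13 members outside the classes differed from each other. The 8 cells with UMIs of both class genes had 1 to 6 UMIs of Mcpt8, medians of 412 UMIs of Mcpt4 and 139.5 of Cpa3, and a median depth of 11538.5 UMIs. The 5 cells with neither had 10 to 108 UMIs of Ccl3, and Il6 in 5 of 5. The single naive basophil-like cell had 5922 UMIs, 2 of them Mcpt8, 20 Ccl3, 109 Ccl4, 13 Il6 and 8 Il4, and its doublet score was above the 95th percentile of its library.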

How the data were processed

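The deposited files are sparse matrices of raw UMI counts per gene and cell barcode, 1 per library, written by Cell Ranger 8.0.1 for the enriched and 7.0.0 for the depleted fraction, per the file headers; the submitters' processing notes name Cell Ranger 8.0.1 and mm10. The feature lists hold 32285 and 54752 genes, so the fractions were never pooled, and 0 columns belonged to samples outside the series. The fraction labelled as de-enriched for CD45 has a protocol that speaks of beads for CD45, and the label was used.

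Cells were filtered and classed as stated with the results (Python 3.11.15, numpy 2.4.6, scipy 1.17.1, pandas 2.3.3, scanpy 1.11.5, matplotlib 3.10.9). The automatic Scrublet threshold marked 0% to 2.47% of the kept cells, under 0.5% in 4 of 6 libraries, where it had not worked, so no cell was removed and cells above the 95th percentile of the score were left out as an alternative. Raw counts were summed per class and library, given as CPM, and compared by log2 ratios with exact conditional binomial intervals; shares have Clopper-Pearson intervals. Both cover counting error only. Ratios against 0 UMIs used a floor of 3 counts. With 1 library per arm and members chosen by their values, no test was run.

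Named genes between the classes were the 15 per direction with the interval bound nearest 0 farthest from it, with at least 20 UMIs and a UMI in 25% of the cells of the higher class. Between arms they were 6 per direction by the same rank, with at least 20 UMIs in the higher group and no limit on the share of cells. Immunoglobulin, T cell receptor, mitochondrial, ribosomal, haemoglobin, sex-linked and unnamed genes were left out. The members and the 28 gene lists (336 of 337 genes in the enriched files) were chosen with earlier results of these data known. Alternatives were thinning to 2000 UMIs, other thresholds, TMM scaling (edgeR 4.0.16 on R 4.3.3), and leaving out single cells, doublet-like cells, cells with markers of other lineages, or a library. Promoter sequences are from RefSeq (6 of 6 matched by symbol) and gene positions from GENCODE.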

Additional observations from a re-analysis of the deposited data

Results flagged for a closer look

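The mast-like share of YUMM1.7 relative to naive nodes was 0.702 in the enriched libraries (9 cells of 7453 and 18 of 10467) and 7.10 in the depleted libraries (19 cells of 8680 and 4 of 12977). The fractions thus lie on opposite sides of 1, and with 1 library per arm in each fraction this difference was not tested. Without the cells that held markers of other lineages the ratios were 2.34 and 6.73, on the same side of 1. Ccl5 in basophil-like cells had a log2 ratio of YUMMER1.7 over YUMM1.7 of 3.53 in the enriched libraries and −2.54 in the depleted libraries. That difference was not tested either; in the enriched libraries 88.8% of the Ccl5 UMIs came from 1 cell.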

How the results depend on the processing

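No paired analysis was possible because each arm had 1 library per fraction. Of 93 counts recomputed, 63 stayed within 1.5 times the reported value and 30 did not. With at least 2 of the 8 genes the naive library had 56 members; with at least 4 the YUMM1.7 library had 5 mast-like cells; with at least 3 UMIs of the class genes it had 11 basophil-like cells and the naive library 0, as it did without doublet-like cells. Without cells holding markers of other lineages the YUMMER1.7, YUMM1.7 and naive libraries had 8, 5 and 3 mast-like and 13, 6 and 0 basophil-like cells. Genes past 2-fold between mast-like and basophil-like cells, 1752 as reported, numbered 574 after thinning to 2000 UMIs, 734 with at least 50 UMIs, 4336 with at least 1 UMI, 556 without cells holding markers of other lineages, 913 in YUMMER1.7 alone and 664 in YUMM1.7 alone. For mast-like YUMMER1.7 over naive, 696 as reported, they numbered 117 thinned, 189 with at least 50 UMIs, 373 without the cell with most UMIs of each gene and 142 without other lineages. For mast-like YUMM1.7 over naive, 831 as reported, these were 145, 270, 517 and 94, and 508 with at least 10 UMIs of the 8 genes. For basophil-like YUMMER1.7 over YUMM1.7, 301 as reported, they were 77, 66, 175 and 129. Higher calls made up 42.6% of the class calls without other lineages and 66.7% as reported, and in the mast-like arms 67.6% in YUMMER1.7 and 67% in YUMM1.7, against 31.6% and 28.2% as reported, while the cytokine list's median stayed between −5.27 and −3.66. None of the 27 genes named between the classes that the rule did not use changed sign in the 14 alternatives. Between arms, signs turned for Ccl5 (0.0726) and Cited2 (0.49) in mast-like YUMMER1.7 over naive without other lineages. In mast-like YUMM1.7 over naive, Bst2 turned to −0.071 without its top cell, which was the deepest cell, −0.13 with at least 3 class UMIs and −0.0173 with at least 10 UMIs of the 8 genes, and Ccl5 to 1.09 without other lineages. In basophil-like YUMMER1.7 over YUMM1.7, Ccl5 turned to −0.29 without its top cell and −0.0028 with 3 class UMIs, H2-Ab1 to 0.0092 with 3 class UMIs, Cd74 to 0.73 without other lineages, H2-Aa to 0.35 without its top cell and 0.18 without other lineages, and H2-Eb1 to 0.88 and, with 3 class UMIs, 0.69. The causes were not tested. Small cell numbers limit these values: 9 to 18 mast-like cells per enriched library, 1 basophil-like cell in the naive one, and sums in which 1 cell can hold over 50% of the UMIs.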
